A study of Homo sapiens with 12 samples.

Results

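U87 cells, an established human glioblastoma line, were exposed to nanoparticles that carried an anti-seed peptide nucleic acid (sgPNA), a synthetic nucleic acid analogue with a peptide-like backbone, made to pair with the seed of a microRNA. The response described here is the one shared by the 9 treated libraries, set against the 3 Control libraries. The treated libraries fall into 3 groups of 3: PNA-10b (150 nM sgPNA-10b, directed at miR-10b), PNA-21 (150 nM sgPNA-21, directed at miR-21) and PNA-10b+21 (150 nM of each). Treatment lasted 72 h, the cells were seeded at 50000 per well, and every treated group received its sgPNA in the particles that the labels call BNP. Control cells were untreated, and the labels give no incubation time for them. The labels describe neither an arm with empty particles nor one with an unrelated PNA. Effects of the particle, of PNA chemistry, of blocking a microRNA and of handling therefore cannot be told apart in what the treated groups share. PNA-10b+21 received both doses. The labels do not say whether the 3 libraries of a group came from separate cultures, so the p-values measure only the spread between these libraries, which may be technical.

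The treated groups were weighted equally, as (PNA-10b + PNA-21 + PNA-10b+21)/3 minus Control on the log2 scale, and this difference is called the pooled change. A gene was counted as changed alike when it passed the pooled test, its 3 log2 fold changes against Control had the same sign, and the smallest of the 3 was at least 2/3 of the largest in size. By this rule 922 of 15715 tested genes were changed alike. Just outside the size rule lay AC068787.4, TAF1B and COA5, with ratios of the smallest to the largest change from 0.6661 to 0.6666, and just inside lay EIF2S2, FZD5 and AL109615.4, with ratios from 0.6668 to 0.6669. The rule uses the fold changes themselves, so its counts describe the data and test nothing. The 3 comparisons also share the Control libraries, so an error in the Control mean enters all 3 in the same direction.

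The treated libraries held 14026933 to 18305820 counts and the Control libraries 12846676 to 17053150. The 10 most abundant genes held 3.48% to 4.46% of the counts in treated libraries and 4.43% to 5.12% in Control libraries. On the first principal component, which carried 28.1% of the variance, PNA-10b lay from -10.1 to -0.58, PNA-21 from 12.6 to 20.2, PNA-10b+21 from 9.02 to 21.9 and Control from -35.5 to -21.4. The mesenchymal markers VIM and CD44 were abundant in every library, whereas the astroglial markers S100B, ALDH1L1 and SOX2 were at or near 0. The astroglial marker GFAP reached 1.50 to 3.19 counts per 1000000 of the normalised library total (CPM) in treated libraries and 3.18 to 4.89 CPM in Control. The glial glutamate transporter SLC1A3 was at 41.2 to 66.2 CPM in treated libraries and 81.0 to 101.2 CPM in Control. CDKN2A, a gene reported as deleted in this line, had 3 counts in all 12 libraries together. Of the macrophage markers 5 of 6 matched. Their summed level was 10.9 to 14.5 CPM in treated libraries and 17.8 to 18.7 CPM in Control. Nearly all of it was CSF1R, the 1 abundant enough to test. CSF1R had 9.72 to 13.9 CPM in treated libraries and 16.9 to 18.0 CPM in Control. PTPRC reached at most 1.98 CPM in treated libraries and 0.29 CPM in Control. CD68, CD14 and ITGAM reached at most 0.63 CPM. A sum carried by 1 gene describes that gene and not a cell type. The 5 endothelial markers summed to 9.81 to 13.1 CPM in treated libraries and 11.02 to 13.4 CPM in Control. The neuron markers, of which 3 of 4 matched, summed to 64.0 to 83.75 CPM in treated libraries. In Control they summed to 80.6 to 90.1 CPM. Most of this was SNAP25, and treated and Control libraries overlapped. The 5 epithelial markers summed to 0.94 to 1.77 CPM in treated libraries and 1.07 to 1.59 CPM in Control. In bulk RNA, fewer cells of a kind and less RNA per cell cannot be told apart.

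Several of the groups described below belong to known circuits. Cells make cholesterol from acetyl-CoA through the mevalonate pathway, squalene and a string of sterol intermediates. When membrane cholesterol is low, the escort protein SCAP carries the precursor of the transcription factor SREBP-2 (gene SREBF2) to the Golgi, where it is cut and released, and it then raises the genes of synthesis and uptake, INSIG1 among them. Nanoparticles enter cells by endocytosis and pass through endosomes that are acidified by the vacuolar proton pump (V-ATPase) on the way to lysosomes. Glioblastoma lines such as U87 also lay down a collagen and fibronectin matrix of their own.

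The sequences that bear on the genes that moved together are the promoters of sterol and mitotic genes. Both are shown from 250 bases before to 50 bases after an annotated start, from RefSeq (GRCh38.p14), 5′ to 3′ on the strand of the gene. In the first 4, capitals mark the CCAAT box, the letters CCAAT or their reverse complement ATTGG, and, in SREBF2, also a sterol regulatory element, TCACNCCAC. SREBF2 and 3 enzymes of sterol synthesis that changed alike are shown, HMGCS1 and MVD of the mevalonate pathway and MSMO1, which removes methyl groups from sterol intermediates.
SREBF2, chr22:41832855-41833154, plus strand: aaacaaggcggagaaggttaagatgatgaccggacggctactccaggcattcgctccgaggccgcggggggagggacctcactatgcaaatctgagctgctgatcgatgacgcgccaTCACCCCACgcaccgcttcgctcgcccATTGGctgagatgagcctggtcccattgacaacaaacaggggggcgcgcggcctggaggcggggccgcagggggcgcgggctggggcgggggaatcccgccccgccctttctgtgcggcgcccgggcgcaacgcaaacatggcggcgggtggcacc
HMGCS1, chr5:43313363-43313662, minus strand: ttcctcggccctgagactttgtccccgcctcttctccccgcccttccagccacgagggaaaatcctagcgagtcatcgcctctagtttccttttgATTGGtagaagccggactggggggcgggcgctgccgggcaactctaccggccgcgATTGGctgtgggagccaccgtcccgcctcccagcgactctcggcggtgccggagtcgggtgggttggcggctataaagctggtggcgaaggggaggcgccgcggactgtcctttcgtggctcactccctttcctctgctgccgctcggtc
MVD, chr16:88663042-88663341, minus strand: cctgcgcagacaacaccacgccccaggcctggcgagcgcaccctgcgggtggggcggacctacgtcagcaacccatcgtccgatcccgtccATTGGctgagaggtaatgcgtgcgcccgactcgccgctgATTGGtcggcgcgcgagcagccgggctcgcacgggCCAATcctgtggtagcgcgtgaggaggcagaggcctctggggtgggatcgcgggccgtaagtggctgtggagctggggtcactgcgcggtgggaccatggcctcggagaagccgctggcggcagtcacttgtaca
MSMO1, chr4:165327419-165327718, plus strand: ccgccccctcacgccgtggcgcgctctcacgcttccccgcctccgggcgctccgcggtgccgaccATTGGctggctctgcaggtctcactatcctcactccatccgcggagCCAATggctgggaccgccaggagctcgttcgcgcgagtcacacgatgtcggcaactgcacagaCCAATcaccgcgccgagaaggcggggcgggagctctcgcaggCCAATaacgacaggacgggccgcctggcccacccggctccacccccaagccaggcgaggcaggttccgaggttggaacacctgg
CCNB2, chr15:59104896-59105195, plus strand: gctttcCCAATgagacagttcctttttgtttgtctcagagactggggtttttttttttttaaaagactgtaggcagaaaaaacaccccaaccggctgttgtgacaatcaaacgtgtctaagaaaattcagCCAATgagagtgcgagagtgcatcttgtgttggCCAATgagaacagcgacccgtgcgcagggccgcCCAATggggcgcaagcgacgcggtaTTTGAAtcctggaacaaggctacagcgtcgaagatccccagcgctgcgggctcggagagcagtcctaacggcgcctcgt
BUB1B, chr15:40160819-40161118, plus strand: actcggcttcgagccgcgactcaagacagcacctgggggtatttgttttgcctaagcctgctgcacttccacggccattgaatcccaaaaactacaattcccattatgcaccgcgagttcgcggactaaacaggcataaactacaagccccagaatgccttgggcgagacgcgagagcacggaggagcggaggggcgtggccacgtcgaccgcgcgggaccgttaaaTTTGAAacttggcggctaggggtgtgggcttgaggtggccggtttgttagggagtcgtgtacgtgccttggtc
In the last 2, which belong to a mitotic cyclin and a spindle checkpoint kinase, capitals mark the CCAAT box and the cell cycle homology region, searched as TTTGAA or its reverse complement TTCAAA. The SREBF2 window holds the sterol regulatory element at -133 from the start and a CCAAT box at -106. The HMGCS1 window holds CCAAT boxes at -155 and -100, MVD at -159, -120 and -85, and MSMO1 at -185, -139, -76 and -34. Of the 16 sterol enzymes with a window in the table, 14 held a CCAAT box (87.5%), compared with 43.1% of tested genes, 39.7% of all 27305 genes of the table and 34.6% of its 35116 windows. It was in 10 of the 11 that changed alike (90.9%), a share close to that of the whole list. The sterol regulatory element spelled as above was in 0 of the 16 sterol enzymes and in 1.39% of all genes. At 16 genes a count of 0 is near that share, and no other spelling was searched. TTTGAA was in 18 of 25 mitotic genes (72.0%), in 14.2% of tested genes and in 18.2% of all genes. The CCAAT box was in 20 of those 25 (80.0%) and in 7 of the 11 that changed alike (63.6%), and in 48.5% of all genes higher alike. A gene counted when any of its windows held the letters on either strand. The 16 sterol enzymes had 1.44 windows each and the 25 mitotic genes 1.24, against 1.29 over all genes, and each motif was searched by its letters alone.

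Over all genes, 4521 of 15715 passed the pooled test (28.8%), 2223 higher in treated cells (14.1%) and 2298 lower (14.6%). At least a 2-fold change was seen for 39 of the higher and 111 of the lower genes. The test among the 3 treated groups, which uses no Control library in its contrast, called 1341 genes (8.53%). Of the 4521 pooled calls, 986 also differed among the treated groups and 922 met the rule for a change alike (5.87% of genes tested), 424 higher (2.70%) and 498 lower (3.17%). The remaining 2615 did neither, and 2 genes, IL36B and NBL1, did both. The pooled calls were weakest in PNA-10b, with a median absolute log2 change of 0.18, against 0.32 in PNA-21 and 0.31 in PNA-10b+21. PNA-10b had the smallest of the 3 changes in 3563 of the 4521. Among the genes changed alike the medians were 0.28, 0.31 and 0.30 in the same order, and 20 rose and 34 fell at least 2-fold. Of the 922, 667 had no overlap between the 9 treated and the 3 Control libraries, 302 higher and 365 lower. Among all 4521 pooled calls the number was 2162. Over all genes 6.74% had every treated library above every Control library and 7.80% had every one below. The 922 had passed the pooled test on these same libraries, so a high share without overlap follows from the choice. The 15 largest rises and 15 largest falls named below were taken only from genes without overlap.

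The counts rested in part on single libraries. Without Control replicate 3, 1405 genes were higher and 1613 lower in the pooled test, and 274 higher and 317 lower were changed alike, of which 528 were among the 922. Without PNA-10b replicate 2, 275 higher and 393 lower genes were changed alike. The test among treated groups called 883, 772 and 818 genes without PNA-10b replicates 1, 2 and 3, and 788 without PNA-10b+21 replicate 1. The plot of counts without each library shows both.

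**Figure D1:**
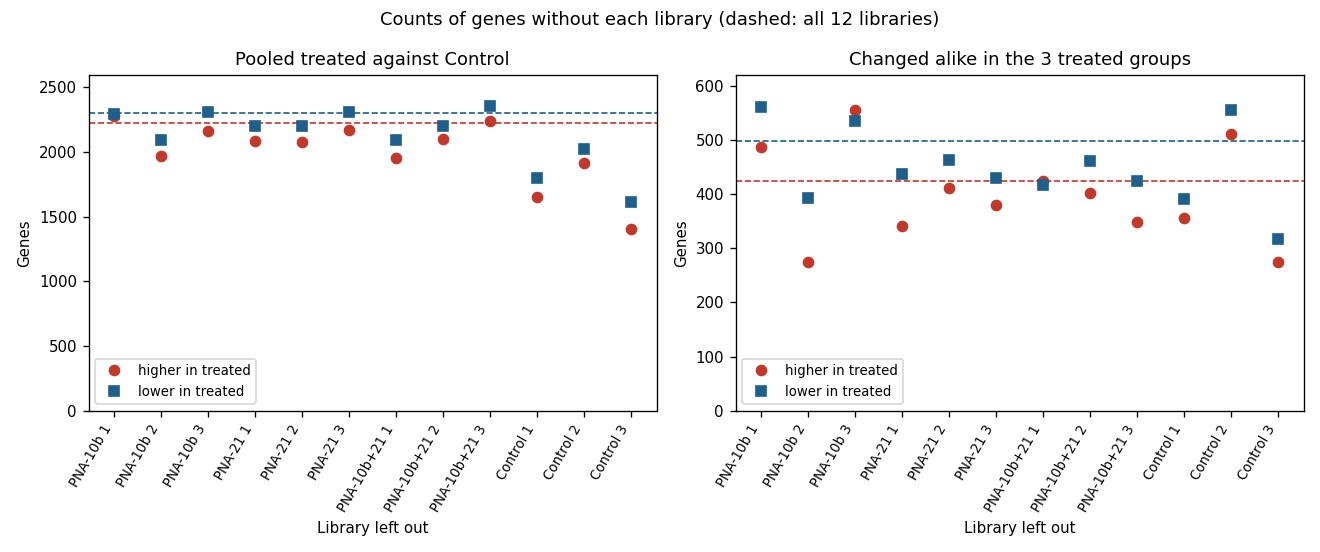
Number of genes (vertical axis) that passed the pooled test (left) or were changed alike in the 3 treated groups (right) when the library on the horizontal axis was left out, with dashed lines for all 12 libraries. The lowest pooled counts, 1405 higher and 1613 lower, came without Control replicate 3.

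Genes of sterol synthesis rose in all 3 treated groups. Of the 10 tested genes of the mevalonate pathway 8 were higher, 0 were lower and 8 were changed alike, with a median pooled log2 change of 0.38 against -0.01 over all genes. The test among the treated groups, adjusted over all genes, called 0 of the 10, and 0 to 1 of them without any 1 library and 2 with the replicate number as a block; a miss of that threshold does not show that the groups were equal. HMGCS1 (ENSG00000112972, chromosome 5 from 43289395 to 43313512 in hg38), which makes HMG-CoA, had 173, 184 and 187 CPM in PNA-10b, 162, 152 and 177 in PNA-21, 157, 151 and 170.2 in PNA-10b+21, and 109.9, 118 and 118 in Control. All 9 treated libraries lay above the 3 Control libraries. Its pooled log2 change was 0.54 ± 0.05 (SE of the fit; adjusted p = 1.39e-07), and the 3 changes were 0.65 after PNA-10b, 0.51 after PNA-21 and 0.47 after PNA-10b+21.

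Other steps of the pathway rose as well. ACAT2, the thiolase that joins acetyl-CoA units, rose by 0.59 ± 0.08, mevalonate kinase MVK by 0.34 ± 0.06, the decarboxylase MVD by 0.42 ± 0.04 and the isomerase IDI1 by 0.49 ± 0.06. MVD changed by 0.44 after PNA-10b, 0.40 after PNA-21 and 0.43 after PNA-10b+21. FDPS, which makes farnesyl pyrophosphate, rose by 0.30 ± 0.05, and FDFT1, which commits it to squalene, by 0.44 ± 0.04. FDFT1 had 215, 212 and 214 CPM in PNA-10b, 238, 228 and 240.2 in PNA-21, 236, 232 and 243 in PNA-10b+21, and 172, 164 and 168 in Control. The 2 members that did not pass were PMVK, the second kinase of the pathway (-0.03 ± 0.07), and GGPS1, which makes the lipid used to anchor small GTPases (-0.05 ± 0.07). GGPS1 had 12.7, 12.4 and 12.1 CPM in PNA-10b, 11.2, 12.7 and 11.4 in PNA-21, 10.3, 10.5 and 11.4 in PNA-10b+21, and 12.1, 11.7 and 12.3 in Control, and its groups overlapped.

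From squalene to cholesterol, 9 of 11 tested enzymes were higher, 0 were lower and 7 were changed alike, with a median pooled log2 change of 0.34. DHCR7, which makes cholesterol from its immediate precursor, had 169.6, 179.5 and 179 CPM in PNA-10b, 198, 182 and 186 in PNA-21, 198, 188 and 199.5 in PNA-10b+21, and 139.6, 129.5 and 137 in Control. Every treated library exceeded every Control library. Its pooled change was 0.46 ± 0.04, with a 95% interval for PNA-10b+21 minus PNA-10b of 0.05 to 0.25. MSMO1 had the largest rise of the path at 0.66 ± 0.09 (0.63 after PNA-10b, 0.78 after PNA-21 and 0.57 after PNA-10b+21), EBP rose by 0.36 ± 0.05 and NSDHL by 0.30 ± 0.05. SQLE, the squalene epoxidase, rose by 0.22 ± 0.04 but fell outside the size rule, at 0.31 after PNA-10b, 0.19 after PNA-21 and 0.15 after PNA-10b+21, and SC5D did likewise at 0.36 after PNA-10b, 0.43 after PNA-21 and 0.21 after PNA-10b+21. LSS, which closes the ring of lanosterol, did not pass (0.25 ± 0.16), though it did in edgeR's fit with no filter on low counts (adjusted p = 0.00119). A single library held its highest value: LSS was at 51.3 CPM in PNA-10b+21 replicate 1 and at 22.9 to 33.8 CPM in the other 8 treated libraries and 21.0 to 26.3 CPM in Control. CYP51A1, the lanosterol demethylase, rose by 0.47 ± 0.15 on low counts, with 3.68 to 5.46 CPM in treated libraries and 2.75 to 3.54 CPM in Control, and did not pass without Control replicate 1.

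The counts of higher genes changed little with the libraries used. Leaving out each library in turn left 8 mevalonate genes higher every time and 7 to 9 genes of the later path, with 0 lower. The number changed alike ran from 5 to 8 for the mevalonate pathway (5 without PNA-10b+21 replicate 3) and from 5 to 7 for the later path.

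**Figure D2:**
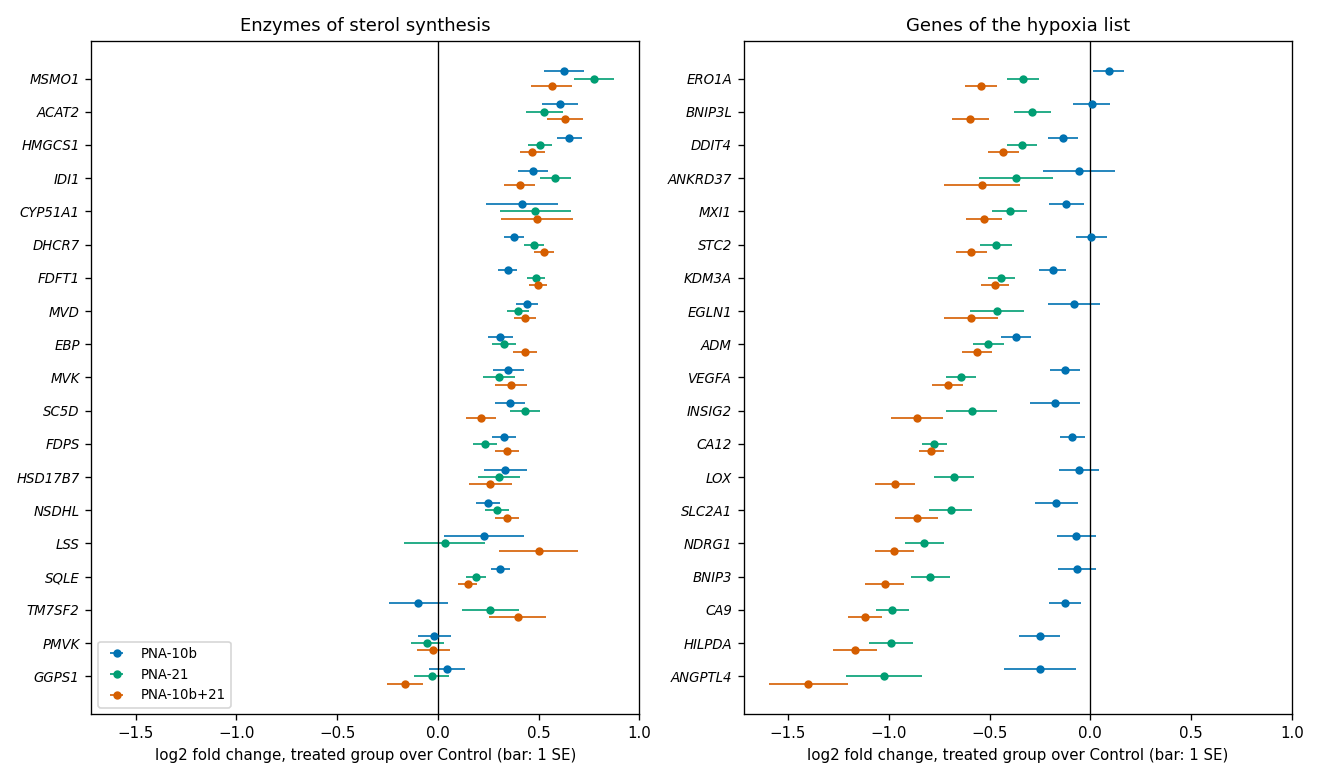
Log2 fold change over Control (horizontal axis) in PNA-10b, PNA-21 and PNA-10b+21, with bars of 1 SE, for the tested enzymes of sterol synthesis that are reported here (left) and each tested gene of the hypoxia list (right), ordered by pooled change. The 3 changes lie together for most enzymes on the left, for example 0.44 after PNA-10b, 0.40 after PNA-21 and 0.43 after PNA-10b+21 for MVD, and apart on the right, for example -0.12 after PNA-10b, -0.98 after PNA-21 and -1.12 after PNA-10b+21 for CA9.

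Among the genes that sense and take up sterol, 5 of 11 tested were higher, 1 was lower and 3 were changed alike, all upward. INSIG1, the retention protein of SCAP and itself an SREBP target, had 469, 525 and 542 CPM in PNA-10b, 591, 596 and 566 in PNA-21, 551, 527 and 582 in PNA-10b+21, and 391, 393 and 348 in Control. It rose by 0.54 ± 0.05. SREBF2 rose by 0.20 ± 0.04, with 0.21 after PNA-10b, 0.20 after PNA-21 and 0.18 after PNA-10b+21. NPC1, which moves cholesterol out of lysosomes, rose by 0.36 ± 0.04 and differed among the treated groups (adjusted p = 0.0224), its change being smallest in PNA-10b (0.24 after PNA-10b, 0.37 after PNA-21 and 0.46 after PNA-10b+21). INSIG2, the other retention protein, fell by 0.54 ± 0.10 and also differed among them (-0.17 after PNA-10b, -0.59 after PNA-21 and -0.86 after PNA-10b+21; adjusted p = 0.00446). SCAP, SREBF1 and NPC2 did not pass the pooled test, at 0.04 ± 0.04, -0.03 ± 0.04 and 0.00 ± 0.04. The count that differed among the treated groups, 3 with all libraries, was 1 without PNA-10b replicate 2.

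The rise did not extend evenly to fatty acids. Of 13 tested genes of fatty acid synthesis 7 were higher, 1 was lower and 2 were changed alike, with a median of 0.12. FASN, the fatty acid synthase, rose by 0.52 ± 0.05 but differed among the treated groups (adjusted p = 0.000419), with 0.31 after PNA-10b, 0.57 after PNA-21 and 0.67 after PNA-10b+21. The desaturase FADS1 (0.30 ± 0.05) and the elongase ELOVL6 (0.16 ± 0.04) were changed alike, though the list had 0 to 3 such genes when single libraries were left out, with 0 without Control replicate 1. SCD, the stearoyl-CoA desaturase, had a pooled change of 0.03 ± 0.05 and ACLY, which supplies acetyl-CoA to both pathways, one of 0.04 ± 0.05, and neither passed. Of 12 tested lipid droplet genes 2 were higher and 4 lower, against 1 higher and 2 lower without Control replicate 3 and 2 lower without Control replicate 1. The shares over all genes were 14.1% higher and 14.6% lower, and the 2 higher are near the first. LIPE, hormone-sensitive lipase, was among the larger rises of all genes changed alike (0.85 ± 0.15), with 4.42, 5.83 and 4.38 CPM in PNA-10b, 5.79, 5.80 and 5.12 in PNA-21, 6.42, 4.67 and 5.46 in PNA-10b+21, and 3.29, 3.06 and 2.42 in Control. PNPLA2, which takes the first fatty acid off triglyceride, fell by 0.22 ± 0.05, with -0.22 after PNA-10b, -0.21 after PNA-21 and -0.23 after PNA-10b+21.

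**Figure D3:**
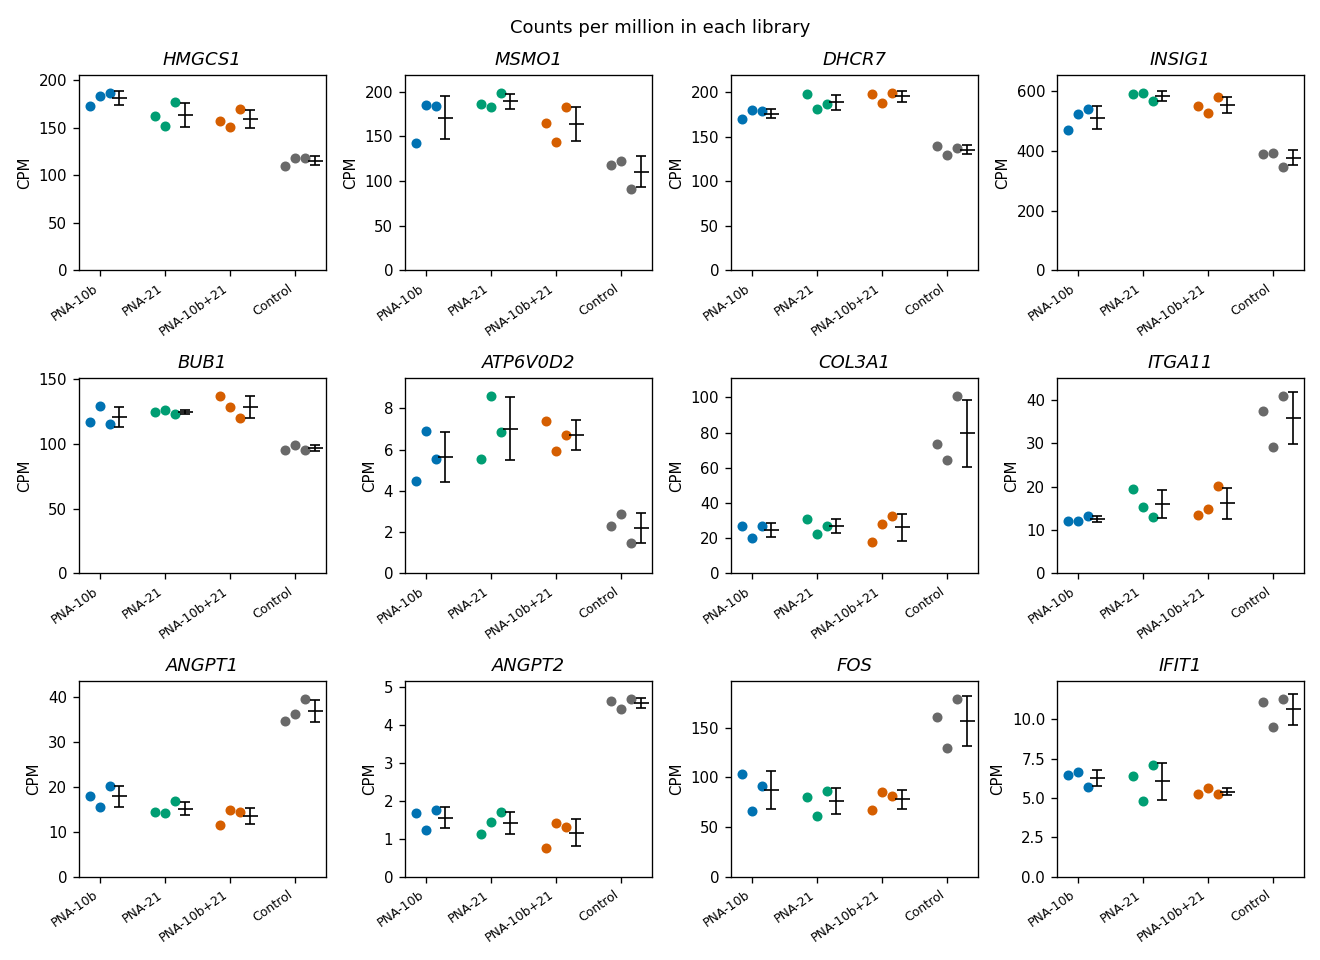
CPM (vertical axis, from 0) of 12 genes in each library of PNA-10b, PNA-21, PNA-10b+21 and Control, with the mean and SD of each group beside its points. In every panel the 9 treated libraries lie on one side of the 3 Control libraries, above for HMGCS1, MSMO1, DHCR7, INSIG1, BUB1 and ATP6V0D2 and below for COL3A1, ITGA11, ANGPT1, ANGPT2, FOS and IFIT1. The rule that named ATP6V0D2, COL3A1, ITGA11, ANGPT1, ANGPT2 and FOS, among others, took only genes without overlap. For them it was fixed by the choice.

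Genes of mitosis rose in small steps. Of 30 tested genes of the G2 and M phases 28 were higher, 0 were lower and 14 were changed alike, with a median pooled log2 change of 0.35, and 1 (AURKA, a spindle kinase) differed among the treated groups. BUB1, a spindle checkpoint kinase, had 117, 129.5 and 116 CPM in PNA-10b, 125, 126 and 123 in PNA-21, 137, 129 and 120.1 in PNA-10b+21, and 95.6, 99.7 and 95.3 in Control. Its pooled change was 0.36 ± 0.05, with 0.32 after PNA-10b, 0.36 after PNA-21 and 0.41 after PNA-10b+21. UBE2C, an enzyme of cyclin destruction, had 3 changes close together, 0.29 after PNA-10b, 0.28 after PNA-21 and 0.29 after PNA-10b+21. TOP2A, which untangles chromosomes, rose by 0.26 ± 0.05, the motor KIF11 by 0.31 ± 0.05, the cyclin CCNB2 by 0.29 ± 0.06 and CCNA2 by 0.39 ± 0.06. AURKA rose by 0.46 ± 0.05 (0.33 after PNA-10b, 0.48 after PNA-21 and 0.58 after PNA-10b+21). The number higher stayed between 27 and 28 without any 1 library, but the number changed alike dropped to 6 if PNA-10b replicate 2 was left out and to 7 if PNA-10b+21 replicate 3 was. Of 32 tested S phase genes 28 were higher and 0 lower, 3 were changed alike (8 without PNA-10b replicate 3) and 8 differed among the treated groups (2 without PNA-10b replicate 3). Their medians were 0.18 after PNA-10b, 0.27 after PNA-21 and 0.36 after PNA-10b+21, against 0.28, 0.36 and 0.38 for the G2 and M phase genes.

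Among genes of the uptake route, 1 stood out. ATP6V0D2 (ENSG00000147614, chromosome 8 from 85987323 to 86154228), a membrane-sector subunit of the V-ATPase known from osteoclasts and kidney, had the largest rise of all genes named by the rule for a change alike. It had 4.49, 6.89 and 5.56 CPM in PNA-10b, 5.55, 8.61 and 6.87 in PNA-21, 7.39, 5.95 and 6.72 in PNA-10b+21, and 2.28, 2.89 and 1.45 in Control. The lowest treated library was above the highest Control library, as the rule that named it asked. The pooled change was 1.50 ± 0.19 (adjusted p = 5.07e-06), with 1.33 after PNA-10b, 1.62 after PNA-21 and 1.56 after PNA-10b+21. Of the 18 tested V-ATPase genes 8 were higher, 1 was lower, 3 were changed alike and 6 differed among the treated groups. ATP6V0A2, another membrane subunit, rose by 0.27 ± 0.05, and the accessory gene ATP6AP1 fell by 0.15 ± 0.04, which did not pass without Control replicate 1. When single libraries were left out, 2 to 6 of the list differed, the lowest count coming without either of PNA-10b replicates 2 and 3 or of PNA-10b+21 replicates 1 and 2. Of 18 clathrin route genes 3 were higher and 0 lower, and of 14 genes of caveolae and macropinocytosis 1 was higher and 3 lower. Over all genes 14.1% were higher and 14.6% lower. By the rule 0 of these 32 genes were changed alike, against 5.87% of all genes, which is near that share at this number of genes. The clathrin genes higher numbered 1 without Control replicate 2 or 3. Of 19 genes of endosome sorting 6 were higher (3 without Control replicate 3), 1 was lower and 0 differed among the treated groups. CHMP2A, of the ESCRT-III complex, was the 1 changed alike, and fell by 0.17 ± 0.04, a change that did not pass without Control replicate 3.

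Of 26 tested lysosomal genes 1 was higher, 10 were lower and 4 were changed alike, with a median of -0.07. The shares over all genes were 14.1% higher, 14.6% lower and 5.87% changed alike. The number changed alike was 2 without Control replicate 1 or PNA-21 replicate 1 or 3, and 7 without PNA-10b replicate 1. SMPD1, acid sphingomyelinase, had 225, 228 and 234 CPM in PNA-10b, 238, 223 and 223 in PNA-21, 233, 219.6 and 236 in PNA-10b+21, and 275, 251 and 263 in Control. It changed by -0.20 after PNA-10b, -0.20 after PNA-21 and -0.20 after PNA-10b+21. The protease CTSF fell by 0.32 ± 0.05, the glucosidase GAA by 0.25 ± 0.06 and the membrane protein LAMP1 by 0.14 ± 0.04. Of 24 autophagy genes 1 was higher and 6 lower (3 without Control replicate 3), with the starting kinase ULK1 (-0.25 ± 0.05) and GABARAPL1 (-0.22 ± 0.05), of the family that coats the forming membrane, changed alike. The share of autophagy genes lower without Control replicate 3 was near that of all genes, and the number changed alike was 1 without Control replicate 1 or 3, PNA-21 replicate 3 or PNA-10b+21 replicate 3.

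Matrix genes fell. Of 20 tested collagen genes 16 were lower, 2 were higher and 6 were changed alike, with a median pooled log2 change of -0.52 and group medians of -0.30 after PNA-10b, -0.62 after PNA-21 and -0.64 after PNA-10b+21. COL3A1 (ENSG00000168542, chromosome 2 from 188974320 to 189012746), which forms type III collagen fibrils, had the largest fall of the list. It had 26.9, 20.1 and 27.1 CPM in PNA-10b, 30.9, 22.6 and 27.1 in PNA-21, 17.8, 28.3 and 32.6 in PNA-10b+21, and 73.3, 64.6 and 101 in Control. The highest treated library was below the lowest Control library, as the rule that named it asked. The pooled change was -1.61 ± 0.13 (adjusted p = 1.81e-08), and the 3 changes were -1.69 after PNA-10b, -1.55 after PNA-21 and -1.60 after PNA-10b+21. COL7A1, of anchoring fibrils, fell by 0.75 ± 0.06 (-0.67 after PNA-10b, -0.81 after PNA-21 and -0.76 after PNA-10b+21) and COL16A1 by 0.62 ± 0.06 (-0.58 after PNA-10b, -0.62 after PNA-21 and -0.66 after PNA-10b+21). COL1A2, a chain of type I collagen, had 2733, 2400.0 and 2726 CPM in PNA-10b, 2320.0, 2182 and 2257 in PNA-21, 2082, 2286 and 2514 in PNA-10b+21, and 3880.0, 3320.0 and 3968 in Control. It was changed alike, whereas its partner COL1A1 was not: COL1A1 had -0.53 after PNA-10b, -0.87 after PNA-21 and -0.86 after PNA-10b+21 and differed among the treated groups (adjusted p = 0.00218), as did COL5A1 (-0.50 after PNA-10b, -1.13 after PNA-21 and -1.11 after PNA-10b+21; adjusted p = 5.9e-06). The 2 that rose were the type IV chains COL4A2 (0.46 ± 0.12) and COL4A6 (0.20 ± 0.06). Without Control replicate 1 neither passed, and without Control replicate 2 or 3 only 1 of them did.

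The enzymes that finish collagen held both kinds of change. Of 18 tested 17 were lower, 0 were higher, 5 were changed alike and 10 differed among the treated groups. LOXL1, a cross-linking oxidase, fell by 0.50 ± 0.05 (-0.42 after PNA-10b, -0.57 after PNA-21 and -0.52 after PNA-10b+21), the proline hydroxylases P3H1 and P3H3 by 0.31 ± 0.04 and 0.23 ± 0.04, and PCOLCE, which helps to trim procollagen, by 0.46 ± 0.06. The oxidase LOX differed, with -0.06 after PNA-10b, -0.67 after PNA-21 and -0.97 after PNA-10b+21 (adjusted p = 9.34e-06). Of 22 matrix glycoproteins 18 were lower, 0 higher and 4 changed alike. MFAP4, a protein of elastic microfibrils, had 53.7, 43.0 and 53.2 CPM in PNA-10b, 54.95, 41.0 and 53.1 in PNA-21, 41.8, 53.8 and 59.3 in PNA-10b+21, and 98.2, 72.4 and 97.0 in Control. Its groups did not overlap and its 3 changes were -0.83 after PNA-10b, -0.83 after PNA-21 and -0.79 after PNA-10b+21. NID2 of the basement membrane fell by 0.54 ± 0.07 and the laminin chain LAMB1 by 0.34 ± 0.05. FN1, fibronectin, fell by 0.57 ± 0.06 without meeting the size rule (-0.44 after PNA-10b, -0.70 after PNA-21 and -0.57 after PNA-10b+21).

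Of 16 tested adhesion receptors, integrin chains and the collagen receptor DDR2, 10 were lower, 0 were higher and 2 were changed alike. ITGA11, the collagen-binding integrin chain of fibroblasts, had 12.2, 12.1 and 13.2 CPM in PNA-10b, 19.5, 15.3 and 13.1 in PNA-21, 13.3, 14.8 and 20.2 in PNA-10b+21, and 37.5, 29.2 and 40.9 in Control. ITGA10, the related chain of cartilage, had 21.4, 18.0 and 22.8 CPM in PNA-10b, 21.4, 17.7 and 20.7 in PNA-21, 20.9, 22.4 and 24.3 in PNA-10b+21, and 37.7, 31.9 and 40.7 in Control. Both were lower in each of the 9 treated libraries than in any Control library, with pooled changes of -1.27 ± 0.11 and -0.80 ± 0.08. For ITGA11 the rule that named it asked for this. Of the other collagen receptors in the list, ITGA1 fell by 0.40 ± 0.05 but differed among the treated groups (adjusted p = 0.00288), DDR2 fell by 0.13 ± 0.04 and differed likewise (adjusted p = 0.0382), and ITGA2 did not pass (0.08 ± 0.05). DDR2 did not pass the pooled test without Control replicate 3, the PNA-21 group or the PNA-10b+21 group. CEMIP, which breaks down hyaluronan, had 20.5, 16.4 and 21.4 CPM in PNA-10b, 29.4, 19.5 and 30.8 in PNA-21, 23.4, 29.9 and 30.4 in PNA-10b+21, and 65.3, 38.1 and 83.7 in Control. It fell by 1.34 ± 0.15. ITGA11, ITGA10 and CEMIP each had their lowest Control value in replicate 2.

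**Figure D4:**
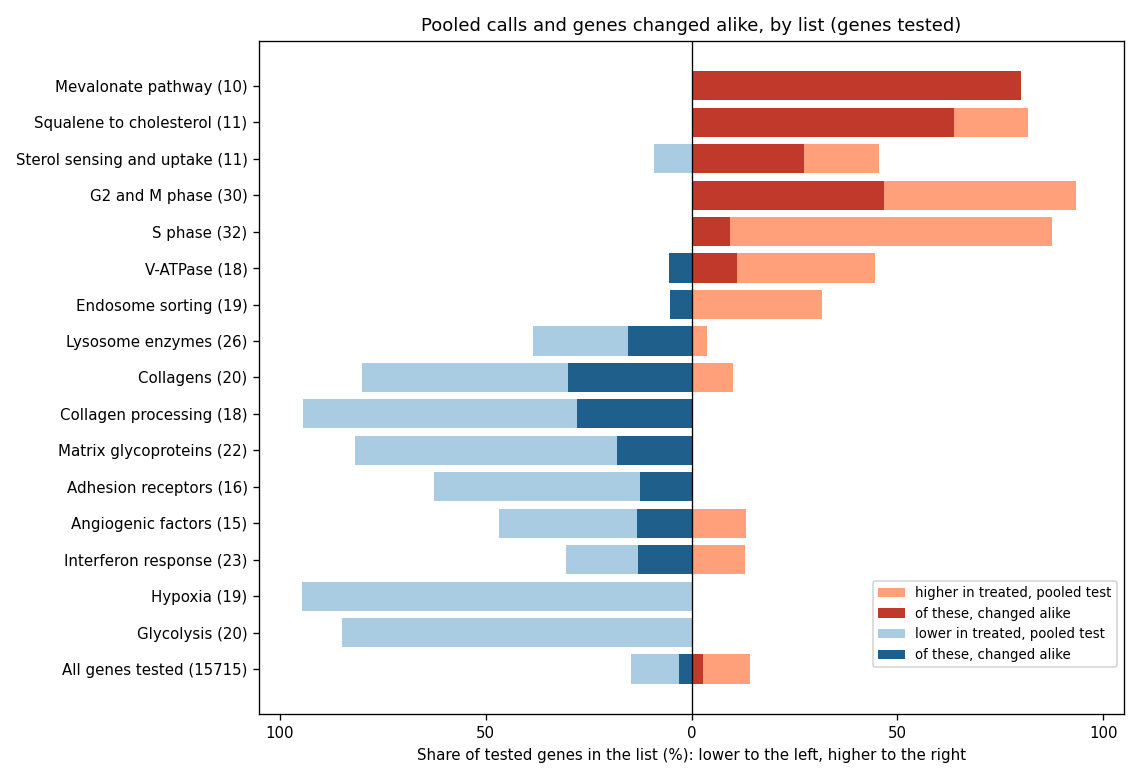
Share of the tested genes of each list shown (horizontal axis, percent) that were higher (right) or lower (left) in treated cells by the pooled test. Brackets hold the number tested, and the darker part is for genes changed alike. The lists shown are a choice from the 51 used. The last row gives all 15715 genes, 14.1% higher and 14.6% lower.

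The angiopoietins, ligands of the endothelial receptor TEK, both fell. ANGPT1 (ENSG00000154188, chromosome 8 from 107249482 to 107498055), which stabilises vessels, had 18.0, 15.4 and 20.1 CPM in PNA-10b, 14.5, 14.2 and 16.7 in PNA-21, 11.4, 14.7 and 14.2 in PNA-10b+21, and 34.7, 36.1 and 39.5 in Control. ANGPT2, its context-dependent antagonist, had 1.67, 1.24 and 1.75 CPM in PNA-10b, 1.12, 1.43 and 1.69 in PNA-21, 0.745, 1.42 and 1.32 in PNA-10b+21, and 4.63, 4.42 and 4.68 in Control. In each case the 9 treated values lay below the 3 Control values, as the rule that named both asked. The pooled changes were -1.25 ± 0.08 (adjusted p = 1.41e-09) and -1.74 ± 0.17 (adjusted p = 2.08e-07). ANGPT1 met the size rule with changes of -1.04 after PNA-10b, -1.27 after PNA-21 and -1.45 after PNA-10b+21, and the 95% interval for PNA-10b+21 minus PNA-10b was -0.64 to -0.18. Of 15 tested angiogenic genes 2 were higher, 7 were lower and ANGPT1 and ANGPT2 were changed alike, with 1 changed alike without PNA-10b replicate 2 and 1 higher without Control replicate 3. The shares over all genes were 14.1% higher, 14.6% lower and 5.87% changed alike. VEGFA fell by 0.49 ± 0.06 but differed among the treated groups (adjusted p = 2.9e-05), with -0.12 after PNA-10b, -0.64 after PNA-21 and -0.71 after PNA-10b+21.

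Immediate early genes did not move as a block. Of 25 tested 3 were higher, 7 lower, 2 changed alike and 10 differed among the treated groups. Among all genes 14.1% were higher, 14.6% lower, 5.87% changed alike and 8.53% differed. The counts higher and changed alike are near those shares at this number of genes. Without PNA-10b replicate 2, 1 was changed alike and 3 differed, and without Control replicate 3, 1 was changed alike. The 2 were FOS and FOSB, partners of JUN in the AP-1 factor. FOS had 104, 66.5 and 91.0 CPM in PNA-10b, 80.5, 61.0 and 86.6 in PNA-21, 66.9, 85.3 and 81.2 in PNA-10b+21, and 161, 129 and 179 in Control, and FOSB had 16.1, 8.43 and 12.5 CPM in PNA-10b, 19.7, 13.1 and 14.5 in PNA-21, 15.7, 16.0 and 17.9 in PNA-10b+21, and 34.9, 25.8 and 40.8 in Control. Treated and Control libraries did not overlap for either, as the rule that named both asked. The pooled changes were -0.96 ± 0.11 and -1.19 ± 0.13. EGR1, by contrast, did not pass (-0.10 ± 0.07; -0.42 after PNA-10b, 0.03 after PNA-21 and 0.10 after PNA-10b+21), and FOSL1 rose by 0.43 ± 0.06. Of 16 genes that respond to ERK signalling 7 were higher and 3 lower (1 without Control replicate 3, 5 without PNA-10b+21 replicate 3). The phosphatase DUSP5 (0.44 ± 0.07), the factor ETV5 (0.29 ± 0.05) and the cyclin CCND1 (0.25 ± 0.05) were changed alike, a count that was 1 without PNA-10b replicate 2. CCND1 had 0.25 after PNA-10b, 0.25 after PNA-21 and 0.24 after PNA-10b+21.

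For genes of antiviral sensing the counts of higher genes were near the share of all genes, 14.1% higher and 2.70% higher alike. Of 23 tested interferon response genes 3 were higher, 7 were lower and 3 were changed alike, all downward. Over all genes 14.6% were lower and 3.17% were lower alike. Without Control replicate 3 these counts were 0, 4 and 1, and without PNA-10b replicate 1 the number changed alike was 5. IFIT1, which binds foreign RNA, had 6.45, 6.66 and 5.69 CPM in PNA-10b, 6.38, 4.78 and 7.08 in PNA-21, 5.27, 5.67 and 5.27 in PNA-10b+21, and 11.1, 9.49 and 11.3 in Control. It fell by 0.84 ± 0.10 (-0.76 after PNA-10b, -0.79 after PNA-21 and -0.97 after PNA-10b+21), with no overlap. STAT2 fell by 0.18 ± 0.04 and the RNA sensor IFIH1 by 0.26 ± 0.09; STAT2 did not pass without Control replicate 3, and IFIH1 did not pass without any 1 of the 3 Control replicates, PNA-10b replicate 2, PNA-21 replicate 1 or PNA-10b+21 replicate 2. IFIH1 also missed the threshold with DESeq2 (adjusted p = 0.105), with edgeR and no filter on low counts (0.115) and without the PNA-21 group (0.0864). Of 12 genes of nucleic acid sensing 0 were higher and 3 lower (1 without Control replicate 1 or 2). DDX58, the sensor RIG-I, had a pooled change of 0.07 ± 0.06 and did not pass. Of 9 complement genes 7 were lower (4 without Control replicate 1) and 1 higher. The central component C3 fell by 0.41 ± 0.05 (-0.35 after PNA-10b, -0.44 after PNA-21 and -0.45 after PNA-10b+21), while CD55, which protects the cell surface, rose by 0.36 ± 0.06. Both were among the 3 genes of the list changed alike, against 1 without PNA-10b replicate 2.

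The remaining large changes alike belong to no list used here, and the rule that named them asked for no overlap. LINC02392, a long noncoding RNA, rose by 1.44 ± 0.20, and PLCXD2, a phospholipase C-like gene, by 1.15 ± 0.18, with 2.90, 3.89 and 3.62 CPM in PNA-10b, 4.66, 4.99 and 3.91 in PNA-21, 5.10, 3.75 and 4.08 in PNA-10b+21, and 1.27, 1.89 and 2.42 in Control. FOLR3, a folate receptor gene, rose by 0.99 ± 0.17 and SLC16A6, of the monocarboxylate transporter family, by 0.92 ± 0.16. C6orf223 had 17.8, 20.9 and 19.3 CPM in PNA-10b, 18.1, 21.1 and 23.0 in PNA-21, 23.1, 19.8 and 20.5 in PNA-10b+21, and 10.1, 10.96 and 10.2 in Control, a pooled change of 0.97 ± 0.09 with no overlap. PNLIPRP3 of the pancreatic lipase family (0.82 ± 0.11), TMEM154 (0.74 ± 0.07), CCDC169 (0.88 ± 0.21) and CARMIL2 (0.69 ± 0.11) also rose. IL36B, a cytokine of the interleukin-1 family, had 277, 283 and 277 CPM in PNA-10b, 295, 319.5 and 391 in PNA-21, 372, 372 and 319.9 in PNA-10b+21, and 169, 175 and 164 in Control. It met the rule and yet differed among the treated groups (adjusted p = 0.0142), with 0.72 after PNA-10b, 0.99 after PNA-21 and 1.06 after PNA-10b+21. LINC01363 (1.11 ± 0.18) is annotated as an antisense transcript and RPLP0P2 (0.75 ± 0.14) as a pseudogene of a ribosomal protein, and their counts are uncertain, since the sources used here do not give the strand setting of the counting.

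On the falling side, RANBP3L, a Ran-binding protein, had 1.96, 0.589 and 1.19 CPM in PNA-10b, 2.07, 0.751 and 2.43 in PNA-21, 1.55, 1.56 and 1.82 in PNA-10b+21, and 6.97, 3.12 and 7.99 in Control. Its pooled change of -1.95 ± 0.27 was the largest of the named genes, and its counts were low. CYTIP, which regulates the adhesion partner cytohesin, fell by 1.47 ± 0.15 and LFNG, which sugars Notch receptors, by 1.09 ± 0.14. C5AR2, a receptor of complement C5a, fell by 1.09 ± 0.13 and SFRP2, a secreted Wnt antagonist, by 0.98 ± 0.13. LMOD1, an actin regulator of smooth muscle (-0.96 ± 0.19), LRRC74B (-1.31 ± 0.16) and SAMD11 (-0.95 ± 0.11) completed the list. LFNG had 2.83, 2.53 and 2.94 CPM in PNA-10b, 2.36, 2.53 and 2.90 in PNA-21, 2.75, 2.12 and 2.95 in PNA-10b+21, and 5.90, 4.66 and 6.70 in Control, and its treated values lay close together, at -1.04 after PNA-10b, -1.12 after PNA-21 and -1.12 after PNA-10b+21 on the log2 scale.

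Against these stand genes that fell in the pool without falling alike. Of 19 tested hypoxia genes 18 were lower in the pooled test and 0 were changed alike, and 17 differed among the treated groups. Of 20 glycolysis genes 17 were lower, 0 were changed alike and 16 differed. Among all genes 14.6% were lower and 5.87% changed alike. The 0 changed alike in each list is near that last share at this number of genes. CA9, a carbonic anhydrase raised by hypoxia, had 252, 250.5 and 248 CPM in PNA-10b, 127, 159 and 129 in PNA-21, 107, 130.0 and 141 in PNA-10b+21, and 287, 269 and 262 in Control. All PNA-10b libraries lay below the lowest Control library and above every library of the other 2 groups. Its pooled change of -0.74 ± 0.06 averages -0.12 after PNA-10b, -0.98 after PNA-21 and -1.12 after PNA-10b+21, and the 95% interval for PNA-21 minus PNA-10b was -1.03 to -0.69. The median changes of the hypoxia list were -0.12 after PNA-10b, -0.59 after PNA-21 and -0.71 after PNA-10b+21. For the mevalonate list they were 0.35, 0.35 and 0.38. By the test among the treated groups, 33 of these 39 hypoxia and glycolysis genes differed, against 8.53% of all genes. The 0 of 21 in both sterol lists is near that share at this number of genes, and either list had up to 2 under other settings. By the same test the largest pooled rises that differed were SERPINB2 (0.99 after PNA-10b, 1.78 after PNA-21 and 1.37 after PNA-10b+21), a pseudogene named AC005077.4 (0.76 after PNA-10b, 1.42 after PNA-21 and 1.53 after PNA-10b+21), RENBP (0.54 after PNA-10b, 1.31 after PNA-21 and 1.18 after PNA-10b+21), IL36B and GCNT3 (0.54 after PNA-10b, 0.89 after PNA-21 and 1.28 after PNA-10b+21). The largest such falls were SLITRK6 (-1.21 after PNA-10b, -1.92 after PNA-21 and -1.83 after PNA-10b+21), CLEC3B (-1.08 after PNA-10b, -1.66 after PNA-21 and -2.03 after PNA-10b+21), MUC1 (-0.46 after PNA-10b, -1.71 after PNA-21 and -1.67 after PNA-10b+21), CCN4 (-0.90 after PNA-10b, -1.42 after PNA-21 and -1.48 after PNA-10b+21) and MIAT (-0.80 after PNA-10b, -1.44 after PNA-21 and -1.41 after PNA-10b+21).

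Base composition moved with the direction of change. The median GC content of the longest annotated transcript was 44.5% for the genes that rose alike, 53.2% for those that fell alike and 47.6% for all genes, while median lengths were 3380, 3359 and 3218 bases. Across 15565 genes Spearman's rho between the pooled change and GC content was -0.10, a description over genes that share libraries. When a curve of each library against GC content was added to the fit, an alternative chosen after the data were seen, 500 genes were higher and 477 lower alike, 702 of them among the 922, and the median GC contents became 50.04% and 49.3%. The curve takes out the trend with GC content, so the closeness of these 2 medians was fixed by the correction. The counts of the 2 sterol lists changed alike were 8 and 7 in that fit, of the G2 and M phase genes 12 and of the collagens 5. The part of base composition in any single change was not tested. Protein-coding genes made up 89.1% of the genes changed alike and 78.9% of all tested genes, and long noncoding RNAs 7.84% and 13.3%.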

How the data were processed

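Messenger RNA of 12 U87 libraries was sequenced from total RNA with a stranded kit, per the labels' protocols. The deposited table holds whole-number read counts per gene, which the authors made by alignment to hg38 with HISAT2 2.1.0, SAMtools 1.7 and HTSeq 0.11.0, per the submitters' processing notes. Neither HTSeq's strand setting nor its annotation is stated in them. Genes were kept by edgeR's filterByExpr at a minimum count of 10 (15715 of 35741 genes, with 99.84% of the counts; 20026 were not tested). Libraries were scaled by TMM factors and fitted with edgeR 4.0.16 (quasi-likelihood test, R 4.3.3) with 1 mean per group over all 12 libraries; adjusted p-values are Benjamini-Hochberg over all tested genes, with a threshold of 0.05. CPM is the count per 1000000 of the library total over tested genes multiplied by its TMM factor. Log2 changes are given with the standard error of the fit. Alternatives used DESeq2 1.42.0, other size factors and filters, a replicate block, other size rules, single libraries or treated groups left out and, added after seeing the data, a GC content correction. Coordinates, types, lengths and GC content came from GENCODE v29 (GRCh38), which held 34564 of the 35741 genes. Of 917 entries in 51 gene lists 897 matched. Replicate numbers were not used to pair samples. Among 18 same-numbered pairs 0 had a correlation of deviations over 0.1, which cannot exclude a shared batch. Genes named were the 15 largest rises and falls alike with no overlap between treated and Control and a mean log2 CPM of at least 1, up to 5 members of each list by smallest pooled p, members whose role the text needs, and the 5 largest rises and falls that also differed among treated groups; the genes on either side of the size threshold are given in addition. Some list members that count in the totals are not reported here by name. The members and lists were chosen with earlier results of these data known. The pipeline was tested on simulated counts.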

Additional observations from a re-analysis of the deposited data

Results flagged for a closer look

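For 3 of 136 named genes, 1 of the 9 treated libraries lay far from the other 8 on the log2 CPM scale. In a group of 9, chance gives such a gap about 1 time in 20. The gap to the nearest library was 0.518 of the whole range for LSS, where PNA-10b+21 replicate 1 was high. It was 0.514 for IFIH1 and 0.494 for RPLP0P2, and in both PNA-21 replicate 1 was low.

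For 27 named genes the test among the 3 treated groups passed, edgeR's quasi-likelihood test with Benjamini-Hochberg adjustment over all genes. Genes of sterol and lipid handling among them were NPC1 (adjusted p = 0.0224), INSIG2 (0.00446), SCAP (0.0114) and FASN (0.000419). Matrix, adhesion and growth factor genes were ITGA1 (0.00288), DDR2 (0.0382), COL5A1 (5.9e-06), COL1A1 (0.00218), LOX (9.34e-06), VEGFA (2.9e-05), CA9 (1.07e-07) and IGFBP5 (0.000165). The genes with the largest pooled changes were IL36B (0.0142), SERPINB2 (0.0244), AC005077.4 (0.00107), RENBP (0.00151), GCNT3 (0.0115), SLITRK6 (0.0443), CLEC3B (0.00707), MUC1 (2.58e-07), CCN4 (0.00378) and MIAT (0.0275). The others were AURKA (0.0331), EGR1 (0.000899), NBL1 (0.0325), CSF1R (0.0334) and SLC1A3 (0.01).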

How the results depend on the processing

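Counts of genes past the pooled test were within 1.5 times of 2223 higher and 2298 lower with DESeq2 (1965 and 1884), other size factors, other filters, the GC content correction and without any 1 treated group. Upper-quartile factors gave 1839 higher and 2607 lower. Leaving out 1 library at a time gave 1405 to 2277 higher, 1613 to 2357 lower, 772 to 1570 that differed among treated groups, 274 to 556 higher alike and 317 to 560 lower alike. The count changed alike depends on its size rule: at 1/2 it was 1021 higher and 1065 lower, and at 0.8 it was 139 higher and 183 lower. The fit with the replicate number as a block gave 2320 higher, 2366 lower and 1558 that differed among treated groups. It gave 440 higher and 511 lower alike. Deviations of same-numbered libraries had r from -0.05 to 0.10 over 18 pairs, and 5 of 12 libraries correlated best with their own number. Of 2988 values of 136 named genes under the alternatives, 2929 stayed on their side of the threshold, 57 no longer passed and 2 newly passed. For genes past the pooled test in the main fit, 0 values changed sign. For named genes that did not pass there, any change of sign was counted among the 2929. Most named genes were chosen by a small pooled p or by no overlap, which favours staying on the same side. The counts without filtering hold genes of few counts, and intervals cover the spread between these libraries only.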

Other observations

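Further gene groups showed changes of mixed kind. Of 14 tested genes of insulin-like growth factor signalling 1 was higher, 10 were lower and 0 were changed alike, and 6 differed among the treated groups. IGFBP5, which binds these growth factors, fell by 1.06 ± 0.09 (-0.53 after PNA-10b, -1.34 after PNA-21 and -1.29 after PNA-10b+21). Of 20 tested NRF2 target genes 10 were higher, 3 lower and 3 changed alike. The aldo-keto reductase AKR1C3 fell by 0.52 ± 0.10, with -0.52 after PNA-10b, -0.51 after PNA-21 and -0.52 after PNA-10b+21. Of 13 genes of the microRNA machinery 3 were higher and 2 lower. Among all genes 14.1% were higher, 14.6% lower and 5.87% changed alike, and these 2 counts are near the first 2 shares at this number of genes. AGO2, the slicing Argonaute, rose by 0.21 ± 0.05 and XPO5, which exports microRNA precursors, by 0.20 ± 0.06, and both were changed alike; XPO5 did not pass without Control replicate 2, which also left 1 gene of the list higher and 1 lower. Without Control replicate 3 the list had 0 genes lower, and without PNA-10b replicate 2 it had 0 changed alike. Of 25 cytosolic ribosomal protein genes 0 were higher and 1 lower.

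The 16 tested genes listed as miR-21 targets comprised 4 that were higher and 8 that were lower, with a median pooled log2 change of -0.20 against -0.01 over all genes. Changed alike were SATB1, a chromatin organiser (-0.48 ± 0.06), and RECK, an inhibitor of matrix proteases (-0.15 ± 0.05); RECK did not pass without Control replicate 2 or 3, PNA-10b replicate 2, PNA-21 replicate 2 or PNA-10b+21 replicate 3. RECK also missed the threshold with DESeq2 (adjusted p = 0.075), with edgeR and no filter on low counts (0.129) and without the PNA-21 group (0.0553). Without PNA-10b+21 replicate 3 the list had 0 genes changed alike. Of 11 tested genes listed as miR-10b targets 3 were higher (1 without Control replicate 2 or 3), 3 lower and 0 changed alike, with a median of 0.01. Shares over all genes were 14.1% higher, 14.6% lower and 5.87% changed alike. The miR-10b counts are near them at this number of genes.

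Among the 15 largest falls alike, the library with the lowest CPM of its group was often the same one from gene to gene, a pattern looked at after the values were seen. It was PNA-10b replicate 2 for 11 of the 15 genes, PNA-10b+21 replicate 1 for 12 and Control replicate 2 for 12, while PNA-21 replicates 1 and 2 were each lowest for 7. The 15 genes share these libraries and are not independent.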
